A study of Mus musculus with 48 samples.

Results

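The kidney remnant of FVB mice 2 days after subtotal nephrectomy was described from 8 of the 48 arrays of the series. The members were taken by their titles: 4 arrays of nephrectomized FVB mice at 2 days, called Nx, and 4 arrays of sham-operated FVB mice at 2 days, called sham. The difference Nx minus sham was taken for each of 13174 genes. FVB is an inbred albino strain that the series design gives as prone to lesions after this operation, and C57BL/6 (written B6) is given as not prone. All mice were 9 weeks old at surgery, and each array held total RNA of the whole kidney, or what was left of it, of 1 animal. Only 3 further pairs of groups are used here, each of 4 Nx and 4 sham mice: B6 at day 2, FVB at day 28 and FVB at day 53. How much kidney was removed, in how many operations, and the sex of the mice are not given in the sources used here.

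Subtotal nephrectomy removes most of the renal mass, and the nephrons that remain take over filtration and enlarge. The proximal tubule, which reclaims protein, glucose, phosphate and amino acids from the filtrate and lives mainly on fat oxidation, is the segment most easily hurt by such an operation. Injured tubule cells are known to lose transporters, to express repair and distress genes such as Lcn2 and Havcr1, to divide, and to attract monocytes that become macrophages, while fibroblasts lay down matrix. The comparison asks which of these programs the FVB remnant shows at day 2.

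The tissue matched its label. Sham arrays held high levels of the endocytic receptor Lrp2 (14.20 ± 0.04, mean ± SD on the log2 scale, n = 4), the phosphate transporter Slc34a1 (13.17 ± 0.05), the loop proteins Umod (15.10 ± 0.14) and Slc12a1 (13.81 ± 0.07), the distal cotransporter Slc12a3 (11.86 ± 0.12) and the water channel Aqp2 (9.67 ± 0.33). The podocyte gene Nphs1 read 5.19 ± 0.11. Levels of different probe sets cannot be set against each other, so these values only show that the segments are present.

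The 4 Nx arrays were not alike, and what set them apart is given first. Mice are named by the numbers of their labels, 1, 2, 4 and 5, and values by array follow in that order throughout. RNA of exocrine pancreas was on 3 of the 4 Nx arrays: the mean of 20 pancreatic genes was 3.45, 9.76, 13.74 and 14.58, against 3.53 to 3.55 on the sham arrays. Nx mouse 1 thus lay at the sham level, and elastase Cela3b read 2.37, 12.76, 15.36 and 15.82 on the Nx arrays. Of these 20 genes 18 passed as higher and 1, Spink1, as lower. The other Nx groups used here carried the signal too. The median Nx minus sham difference of the list was 7.84 in FVB at day 2 and 6.47 in B6 at day 2. It was 5.60 in FVB at day 28 and 4.00 in FVB at day 53. Genes of neutrophils were highest on Nx mouse 2 (list mean 8.06, against 4.61 to 5.66 on the other Nx arrays). Fat genes were high on Nx mouse 4 (10.49) and sham mouse 5 (10.05) and lay between 7.21 and 8.84 on the other arrays. Among the sham kidneys, mouse 5 had the highest mean of the macrophage, collagen and CC chemokine lists. The 3 prime minus 5 prime difference of Gapdh, a measure of RNA integrity, was 0.303 on average in Nx (0.227 to 0.451) and 0.156 in sham (0.135 to 0.191), with an exact permutation p of 0.0286, two-sided, the smallest p that 4 against 4 arrays allow. The same difference of Actb went the other way, 2.21 on average in Nx (2.04 to 2.34) and 2.40 in sham (2.26 to 2.57), with an exact permutation p of 0.0571, two-sided. What part these values play in the results below was not tested, except where a value without an array is given.

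**Figure D1:**
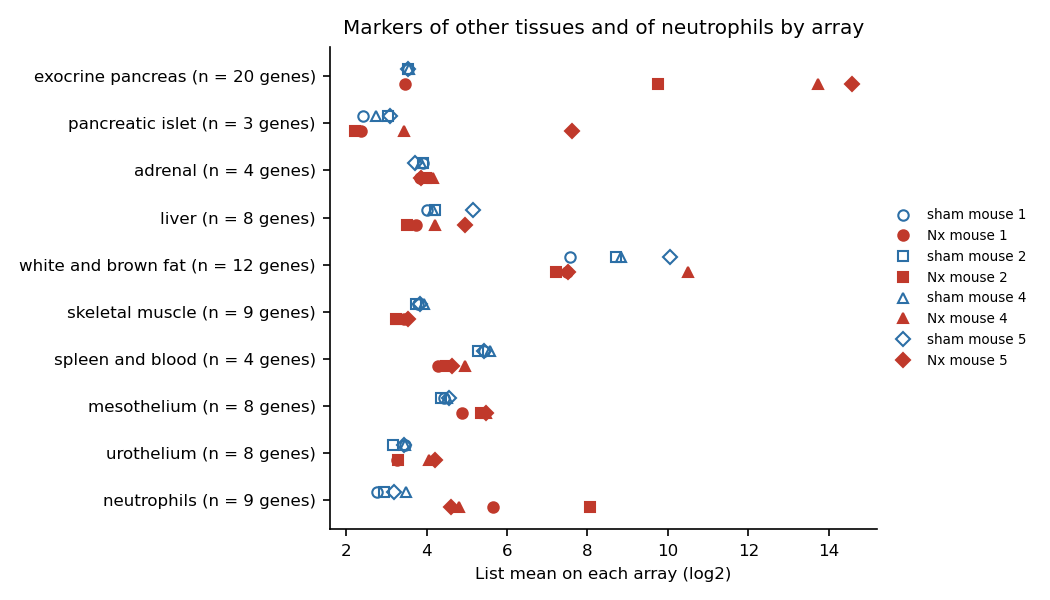
Mean level of marker genes of other tissues and of neutrophils on each array (x axis, log2), for the 4 Nx arrays (filled) and the 4 sham arrays (open), with mouse numbers as symbols. Exocrine pancreas genes are high on Nx mice 2, 4 and 5 and at the sham level on Nx mouse 1, and neutrophil genes are highest on Nx mouse 2.

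Across the genome the remnant changed widely. Of 13174 genes, 3273 were higher in Nx (24.8%) and 3948 lower (30.0%) at an adjusted p under 0.05, by limma with Benjamini-Hochberg adjustment over all genes. The 4 Nx and 4 sham values did not overlap for 5783 genes (43.9%), 2664 of them higher and 3119 lower. The median difference over all genes was -0.03 on the log2 scale. Rises were larger than falls: 1338 genes rose and 723 fell by at least 1 on the log2 scale, and 130 rose and 4 fell by at least 4. In 192 of the genes that rose, all 4 sham arrays lay at or under 2.277, the value of the filter on low signals. Values at or under it are called the floor here, and a fold against such a group is a lower bound, written as "at least". Some genes named below read the same value on several sham arrays above the floor. Such values may also be background, and a fold against them may be a lower bound too. The split rests on the scaling. With every array shifted to 1 median of all probe sets, which moved the median gene to -0.20, the counts were 2310 higher and 6565 lower. The median of the kept genes as the common level gave 2838 higher and 4617 lower. Small differences are to be read against these shifts. With Nx mouse 1 as the only Nx array, an alternative chosen after its pancreas values were seen, 2262 genes were higher and 2960 lower. A lone array has no spread of its own: here and in each value with Nx mouse 1 alone it is assumed to vary like the arrays of the other groups in the fit.

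**Figure D2:**
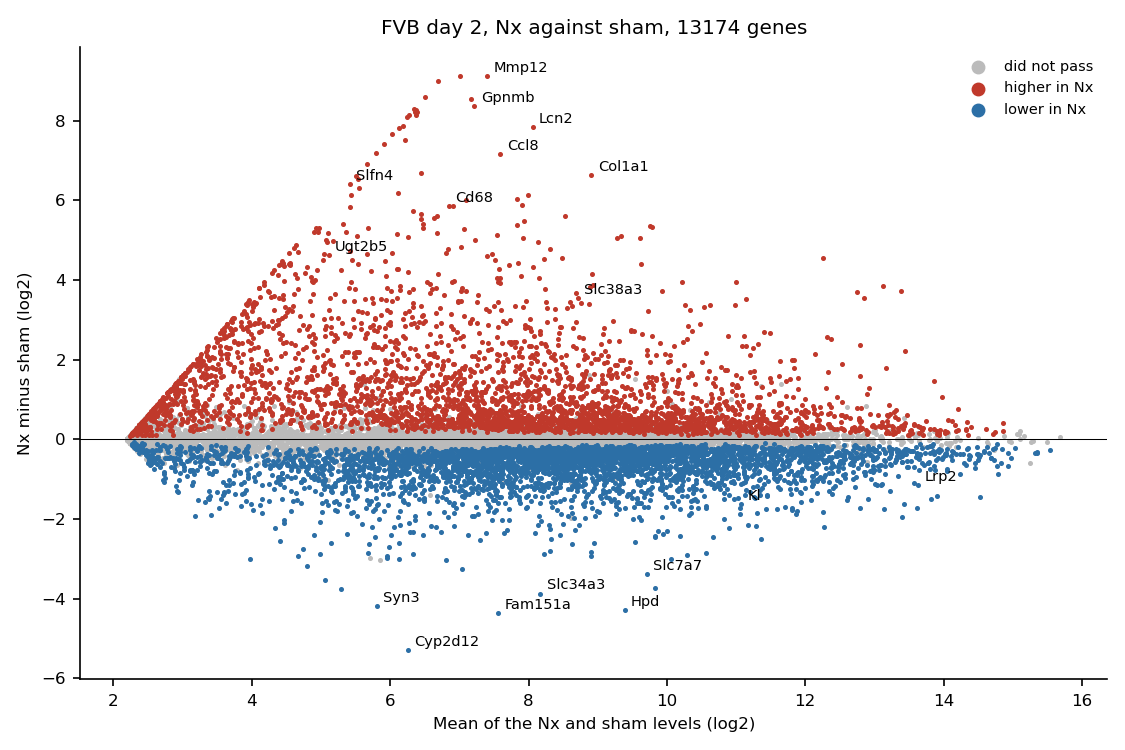
Difference Nx minus sham (y axis, log2) against the mean level over the 8 arrays (x axis, log2) for 13174 genes, with genes that passed as higher in red, as lower in blue and the others in grey. Rises reach 9.13, in the pancreatic gene Cela3b, and falls reach -5.30, and the slanted edge at the left is set by genes whose sham values lie at the floor of the arrays.

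Nx mouse 5 had the smallest change and Nx mouse 2 the largest. Of the 7221 genes that passed, mouse 5 showed the smallest difference from the sham mean in 3836 and mouse 2 the largest in 3382. Pearson correlations over genes were 0.970 to 0.989 among Nx arrays, 0.992 to 0.996 among sham arrays and 0.921 to 0.950 between them. Nx arrays thus differed among themselves more than sham arrays did. The pancreas genes are among the genes correlated, and their part in this spread was not tested.

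Where the groups do not overlap, which leaves out the pancreas genes that rose, the largest rises were genes of macrophages and of matrix turnover. Macrophage elastase Mmp12 read 12.51, 12.57, 12.02 and 10.76 on the Nx arrays and 2.56, 2.20, 2.56 and 4.08 on the sham arrays (555-fold; log2 difference 9.12, SE 0.58, adjusted p = 2.17e-15). All Nx values lay far above sham, with mouse 5 the lowest. The transmembrane glycoprotein Gpnmb, which phagocytes make when loaded with debris, read 11.87, 11.92, 11.35 and 10.47 on the Nx arrays and 2.95, 2.95, 2.95 and 3.30 on the sham arrays (330-fold; log2 difference 8.37, SE 0.55, adjusted p = 4.23e-15). Sham mice 1, 2 and 4 share the value 2.95, so the fold may be a lower bound. The iron-siderophore binding lipocalin Lcn2, a marker of tubule injury, read 12.14, 12.47, 11.68 and 11.63 on the Nx arrays and 4.17, 3.78, 4.17 and 4.45 on the sham arrays (229-fold; log2 difference 7.84, SE 0.44, adjusted p = 7.18e-17). The Nx values span less than 1 log2 unit. The monocyte attractant Ccl8 read 10.67, 11.93, 11.26 and 10.86 on the Nx arrays and 2.61, 3.51, 4.14 and 5.78 on the sham arrays (144-fold; log2 difference 7.17, SE 0.68, adjusted p = 1.9e-11). Its sham values differ among themselves by more than its Nx values do, and the groups do not overlap.

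Among the 15 largest rises whose values do not overlap, the collagen chain Col1a1 read 12.38, 12.48, 12.17 and 11.87 on the Nx arrays and 4.25, 5.42, 5.68 and 7.02 on the sham arrays (99.2-fold; log2 difference 6.63, SE 0.42, adjusted p = 2e-15). The metalloproteinase inhibitor Timp1 read 8.83, 9.52, 8.45 and 8.05 on the Nx arrays and 2.20, 2.20, 2.20 and 2.97 on the sham arrays (log2 difference 6.32, SE 0.55, adjusted p = 2.75e-12), and 3 of its 4 sham values lie at the floor. Slfn4, an interferon-induced gene of myeloid cells, was at the floor in every sham kidney and read 9.64, 8.93, 7.53 and 8.41 in Nx (at least 81.4-fold; log2 difference 6.41, SE 0.31, adjusted p = 1.13e-18). The C-type lectins Clec4n (6.54, SE 0.45) and Clec4d (6.18, SE 0.57), both pattern receptors of myeloid cells, the chemokine Ccl9 (6.03, SE 0.67) and the lysosomal macrophage protein Cd68 (5.86, SE 0.49) were of the same order. So were 3 membrane proteins of the Ms4a family, Ms4a4c (6.14, SE 0.42), Ms4a7 (6.13, SE 0.41) and Ms4a6d (5.88, SE 0.58). Serpinf1, a secreted serpin that blocks vessel growth, read 10.32, 10.30, 10.40 and 9.36 on the Nx arrays and 3.32, 3.42, 3.33 and 6.32 on the sham arrays (log2 difference 6.00, SE 0.65, adjusted p = 4.35e-10), with sham mouse 5 far above the other sham mice. Without sham mouse 5 each of these rises still passed. Ms4a, Slfn, Ugt2b and Cyp2d genes have close relatives whose transcripts a probe set may also bind, so the identity of the member is less certain.

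The largest falls were tubule enzymes and transporters. The cytochrome Cyp2d12 read 3.47, 2.99, 2.99 and 4.97 on the Nx arrays and 9.56, 8.60, 8.39 and 9.08 on the sham arrays (39.5-fold lower; log2 difference -5.30, SE 0.49, adjusted p = 1.2e-11). Hpd, which breaks down tyrosine, read 7.73, 6.32, 6.65 and 8.27 on the Nx arrays and 11.68, 11.46, 10.68 and 12.33 on the sham arrays (19.6-fold lower; log2 difference -4.29, SE 0.52, adjusted p = 5.43e-09). Mouse 5 held the highest Nx level of both. The phosphate cotransporter Slc34a3 read 5.94, 5.90, 5.12 and 7.98 on the Nx arrays and 10.14, 10.00, 10.05 and 10.25 on the sham arrays (14.7-fold lower; log2 difference -3.88, SE 0.37, adjusted p = 2.41e-11). Fam151a, a gene of the proximal tubule with little known function, read 5.45, 4.74, 5.00 and 6.35 on the Nx arrays and 9.75, 9.60, 9.74 and 9.87 on the sham arrays (20.5-fold lower; log2 difference -4.36, SE 0.27, adjusted p = 1.54e-15). Again mouse 5 lay closest to sham. The same order held for the neutral amino acid transporter Slc6a19 (7.89, 8.23, 8.42 and 9.73 on the Nx arrays and 11.62, 11.15, 11.32 and 12.18 on the sham arrays; log2 difference -3.00, SE 0.31, adjusted p = 1.43e-10). Serpina6, the corticosteroid-binding globulin (-3.76, SE 0.36), Aspdh (-3.25, SE 0.33), Nepn (-3.53, SE 0.33), Clec2h (-3.74, SE 0.42), the interleukin 5 receptor chain Il5ra (-3.19, SE 0.22), the ubiquitin ligase Rnf183 (-2.97, SE 0.33), Lrrc66 (-2.93, SE 0.30) and Csrnp3 (-3.00, SE 0.26) fell too. Syn3 fell by 4.19 (SE 0.46); this neuronal gene carries Timp3, a gene that kidney expresses, inside an intron on the other strand.

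**Figure D3:**
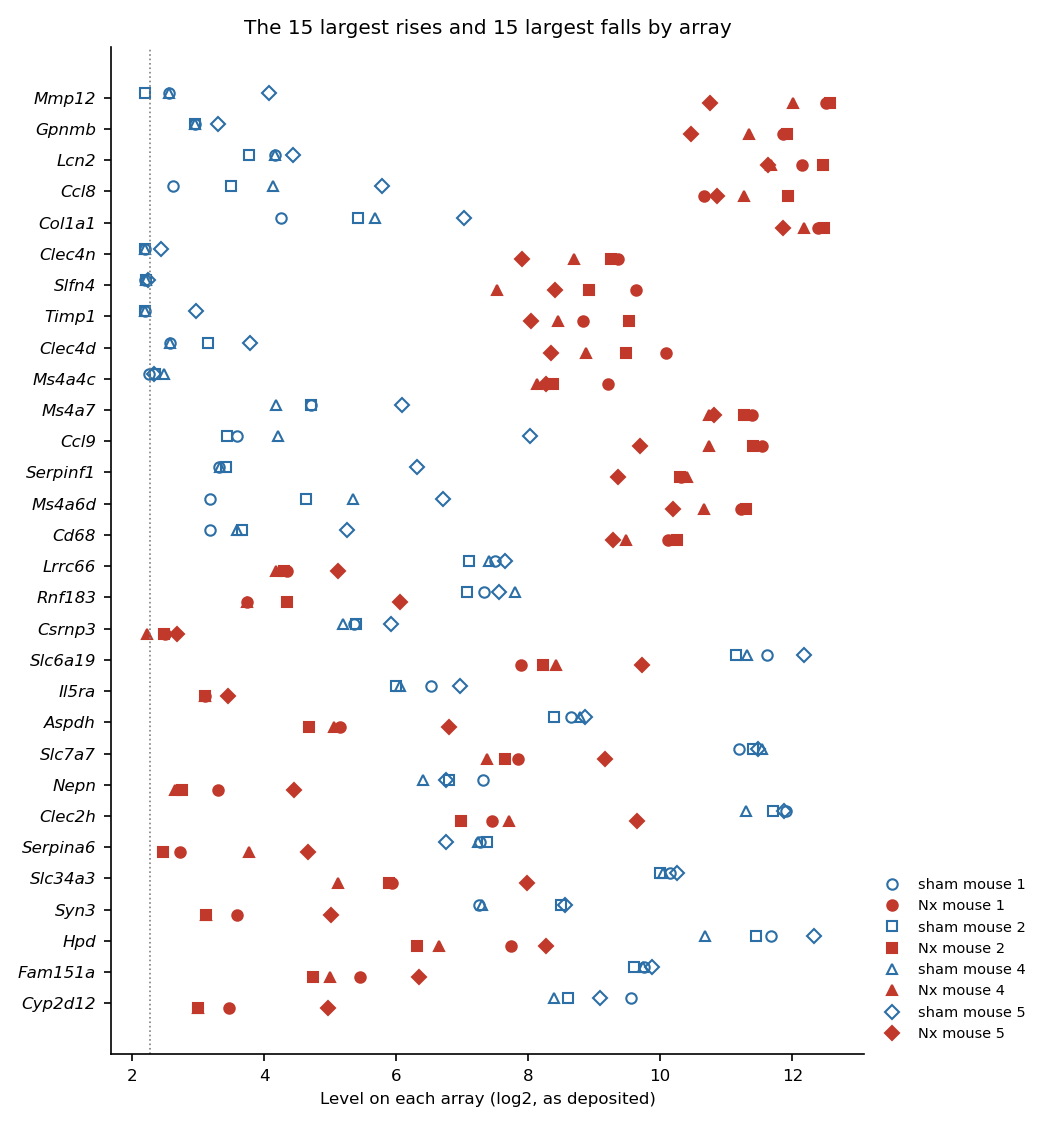
Level on each array (x axis, log2 as deposited) of the 15 genes with the largest rise and the 15 with the largest fall among those whose Nx (filled) and sham (open) values do not overlap. Nx mouse 5 (diamonds) is the lowest Nx array for most of the risen genes and the highest for most of the fallen ones, and the dotted line marks the filter value of 2.277.

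Genes of no list fixed for this report also stood among the changes. Beside Ms4a4c and Serpinf1, the largest were Ecrg4 (5.75, SE 0.42, adjusted p = 4.69e-14), Fndc1 (5.66, SE 0.48, adjusted p = 1.9e-12), the opioid precursor Penk (5.57, SE 0.53, adjusted p = 2.37e-11), Lgi2 (5.41, SE 0.41, adjusted p = 1.51e-13), the interferon-inducible Ifi209 (5.32, SE 0.34, adjusted p = 2e-15), the myeloid receptor Cd300lb (5.31, SE 0.56, adjusted p = 3.05e-10), Bmper, which binds bone morphogenetic proteins (5.22, SE 0.57, adjusted p = 5.19e-10), and the cornified envelope gene Sprr2f (5.21, SE 0.42, adjusted p = 4.64e-13). Penk read 9.33, 9.87, 9.70 and 8.76 on the Nx arrays and 3.61, 3.61, 3.61 and 4.56 on the sham arrays. Every Nx value lies at least 4 log2 units above every sham value, of which mouse 5 has the highest.

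Injury genes of the tubule rose together. Of 22 measured genes of tubule injury and dedifferentiation, 17 were higher and 2 lower, with a median difference of 1.82 against -0.03 for all genes. After Lcn2, the keratin Krt20 read 7.18, 6.96, 6.43 and 6.27 on the Nx arrays and 3.09, 3.05, 3.05 and 3.09 on the sham arrays (12.5-fold; log2 difference 3.64, SE 0.21, adjusted p = 2.96e-16). The adhesion molecule Vcam1 read 11.70, 12.57, 11.68 and 11.88 on the Nx arrays and 8.29, 9.01, 9.02 and 8.53 on the sham arrays (log2 difference 3.25, SE 0.22, adjusted p = 7.46e-15). The hyaluronan receptor Cd44 read 9.79, 10.19, 9.43 and 9.42 on the Nx arrays and 2.79, 4.42, 4.36 and 6.09 on the sham arrays (log2 difference 5.29, SE 0.46, adjusted p = 2.48e-12). None of these 3 has overlapping groups, and mouse 5 has the lowest Nx value of Krt20 and Cd44. The secreted chaperone clusterin, Clu, rose from a high level (14.66, 14.55, 14.59 and 14.56 on the Nx arrays and 13.18, 13.28, 12.99 and 13.10 on the sham arrays; log2 difference 1.46, SE 0.10, adjusted p = 4.23e-15). Havcr1, the injury molecule KIM-1 of the proximal tubule, is outside the rule for named genes and was added after its values were seen; it read 8.55, 8.28, 8.19 and 8.67 on the Nx arrays and 4.15, 4.43, 5.41 and 4.97 on the sham arrays (12.8-fold; log2 difference 3.68, SE 0.56, adjusted p = 4.9e-07). The members that fell were Prom1 (-0.44, SE 0.09) and the integrin chain Itgb6 (-0.77, SE 0.30). Itgb6 did not pass without Nx mouse 2, 4 or 5 or without sham mouse 1 or 4.

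Transcription factors of the immediate early class, which cells switch on within minutes of a stimulus, were in part high at day 2. Of 28 measured, 19 were higher and none lower (median 0.98). Egr2 read 7.17, 7.27, 6.92 and 6.30 on the Nx arrays and 2.24, 2.56, 2.95 and 3.88 on the sham arrays (log2 difference 4.01, SE 0.51, adjusted p = 1.6e-08), Atf3 rose by 3.64, SE 0.48, Fosl2 by 2.05, SE 0.24, Ier5 by 1.34, SE 0.17 and Klf6 by 1.49, SE 0.15. Sham kidneys also varied here: the list mean ran from 6.66 in sham mouse 1 to 7.49 in sham mouse 5, a range wider than that of the Nx kidneys (8.03 to 8.40).

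Genes of uptake and transport in the proximal tubule fell. In whole kidney RNA, fewer cells of a type and less RNA per cell cannot be told apart, which holds for every tubule gene below. Of 11 genes of protein uptake, 10 were lower (median -0.87). Megalin, Lrp2, read 12.85, 12.87, 13.07 and 13.45 on the Nx arrays and 14.18, 14.20, 14.19 and 14.26 on the sham arrays (log2 difference -1.14, SE 0.11, adjusted p = 5.37e-11), and its partners Cubn (-1.12, SE 0.13) and Amn (-1.53, SE 0.14) fell with it. The folate receptor Folr1 fell by 1.44 (SE 0.11) and the sodium-proton exchanger Slc9a3 by 1.14 (SE 0.10). Each of these falls is near 1 log2 unit, and the Nx and sham values of Lrp2 do not overlap. Brush border enzymes and scaffolds fell in 11 of 14 with none higher. The meprins Mep1b (-2.45, SE 0.28) and Mep1a (-1.22, SE 0.14), cadherin Cdhr5 (-1.10, SE 0.12) and the collectrin gene Cltrn (-0.87, SE 0.07) were among them.

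Amino acid transporters fell in 15 of 16, with a median of -1.12. The basolateral exchanger Slc7a7 read 7.85, 7.65, 7.37 and 9.17 on the Nx arrays and 11.20, 11.41, 11.53 and 11.48 on the sham arrays (10.5-fold lower; log2 difference -3.39, SE 0.24, adjusted p = 2e-14), its apical counterpart Slc7a9 fell by 1.80 (SE 0.15) and the heavy chain Slc3a1 by 0.89 (SE 0.09). One member went the other way: Slc38a3, a glutamine transporter of the basolateral membrane that feeds ammonia production, read 10.81, 10.33, 10.72 and 10.06 on the Nx arrays and 6.75, 6.72, 6.67 and 7.62 on the sham arrays (11.6-fold higher; log2 difference 3.54, SE 0.37, adjusted p = 1.65e-10). All 4 Nx kidneys lay at least 2 log2 units above every sham kidney, and mouse 1, without pancreas signal, was the highest.

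Glucose, phosphate and bicarbonate transporters were lower in 11 of 16 and higher in 4. The phosphate cotransporter Slc34a1 read 11.17, 11.05, 11.17 and 11.99 on the Nx arrays and 13.13, 13.23, 13.20 and 13.14 on the sham arrays (log2 difference -1.83, SE 0.16, adjusted p = 3.53e-12), the glucose cotransporter Slc5a2 fell by 1.87 (SE 0.18), carbonic anhydrase Car4 by 2.04 (SE 0.18) and the water channel Aqp1 by 1.36 (SE 0.12). The risen members were the sugar transporter Slc5a10 (0.87, SE 0.13), the phosphate transporter Slc20a1 (0.95, SE 0.15), the monocarboxylate transporter Slc5a8 (0.55, SE 0.13) and Slc5a1 (0.36, SE 0.11). Slc5a1 did not pass without Nx mouse 1, and Slc5a8 did not with Nx mouse 1 alone. Organic ion transporters fell in 13 of 19 with none higher, among them Slc22a18 (-2.43, SE 0.19), the efflux pump Abcb1a (-2.76, SE 0.29), Slc17a1 (-0.99, SE 0.08) and Slc22a4 (-1.35, SE 0.14).

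Genes of later segments fell as well. Thick ascending limb genes were lower in 12 of 14 with none higher (median -0.86): the calcium-sensing receptor Casr by 1.84 (SE 0.18), the potassium channel Kcnj1 by 1.02 (SE 0.11) and the magnesium-pathway claudin Cldn16 by 0.83 (SE 0.12). The defining marker Umod fell only by 0.34 (SE 0.08; 14.88, 14.83, 14.60 and 14.71 on the Nx arrays and 15.20, 15.21, 14.90 and 15.07 on the sham arrays). Distal convoluted tubule genes were lower in 14 of 15 (median -0.75), led by Kcnj16 (-1.03, SE 0.09), Fxyd2 (-0.68, SE 0.06), S100g (-1.05, SE 0.13) and Cnnm2 (-1.54, SE 0.19), and the calcium pump Atp2b1 was higher (0.56, SE 0.20). Atp2b1 did not pass with every array shifted to 1 median, nor without Nx mouse 1 or 4 or sham mouse 4.

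In the collecting duct, principal cell genes were lower in 10 of 18 and higher in 2. The enzyme Hsd11b2, which shields the mineralocorticoid receptor from cortisol, fell by 0.88 (SE 0.11), the receptor Nr3c2 itself by 0.95 (SE 0.15), the water channel Aqp3 by 0.91 (SE 0.15) and the vasopressin receptor Avpr2 by 1.17 (SE 0.20). The sialyltransferase St6gal1 (1.22, SE 0.17) and the factor Tfcp2l1 (0.32, SE 0.07) rose, Tfcp2l1 not with every array shifted to 1 median of all probe sets. Intercalated cell genes, which secrete acid or base, were lower in 12 of 16 (median -1.02). Their master factor Foxi1 read 4.89, 4.50, 4.39 and 4.80 on the Nx arrays and 6.75, 6.59, 7.39 and 6.64 on the sham arrays (log2 difference -2.19, SE 0.25, adjusted p = 9.92e-10), the ammonia channel Rhcg fell by 1.66 (SE 0.19), pendrin Slc26a4 by 1.59 (SE 0.20) and the proton pump subunit Atp6v1b1 by 1.18 (SE 0.15). A different pump subunit that osteoclasts and macrophages also use, Atp6v0d2, was higher (0.66, SE 0.18), though not with Nx mouse 1 alone.

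Factors that hold nephron identity were lower in 15 of 21 and higher in 1 (median -0.78). Lhx1 fell by 1.45 (SE 0.15), Emx1 by 1.24 (SE 0.16), Sall1 by 0.80 (SE 0.11) and Ppargc1a, the coactivator of mitochondrial genes, by 1.09 (SE 0.14). Ppargc1a read 10.48, 10.27, 10.34 and 10.59 on the Nx arrays and 11.68, 11.56, 11.43 and 11.34 on the sham arrays, without overlap. Claudins split: the sealing claudins Cldn4 (2.02, SE 0.18), Cldn3 (1.11, SE 0.14) and Cldn7 (1.06, SE 0.15) rose, while Cldn12 (-0.84, SE 0.08), the leaky proximal Cldn2 (-0.64, SE 0.08) and Cldn16 fell.

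Enzyme genes of the tubule fell with the transporter genes. Of 41 genes of amino acid breakdown, 38 were lower and 1 higher (median -0.99). Among the 5 of smallest p were enzymes that break down branched-chain amino acids and propionate: Mccc2 read 9.40, 9.30, 9.42 and 9.89 on the Nx arrays and 11.10, 11.19, 11.21 and 11.28 on the sham arrays (log2 difference -1.69, SE 0.13, adjusted p = 3.68e-13), Mmut fell by 1.24 (SE 0.10), Mccc1 by 1.27 (SE 0.11) and Pcca by 1.08 (SE 0.09). The tryptophan enzyme Kmo fell by 2.01 (SE 0.17). The member that rose was histidine ammonia-lyase Hal, at 6.25, 5.70, 5.54 and 5.38 in Nx and at the floor in every sham kidney (at least 10.8-fold; log2 difference 3.51, SE 0.33, adjusted p = 1.44e-11).

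Mitochondrial and peroxisomal genes fell by smaller steps. Respiratory chain genes were lower in 33 of 35 with none higher (median -0.37, range -0.69 to -0.08); the ATP synthase subunit Atp5b read 14.28, 14.21, 14.22 and 14.25 on the Nx arrays and 14.71, 14.75, 14.86 and 14.72 on the sham arrays (log2 difference -0.52, SE 0.05, adjusted p = 3.22e-12). Citric acid cycle genes were lower in 18 of 22, Idh2 by 0.83 (SE 0.08) and Sdha by 0.63 (SE 0.07). Fatty acid oxidation was lower in 12 of 21 and higher in 2, the mitochondrial Decr1 (0.30, SE 0.10) and Slc25a20 (0.25, SE 0.10), and Acsm2 (-1.94, SE 0.12) and Acads (-1.12, SE 0.12) were among those that fell. Neither rise passed without Nx mouse 4 or sham mouse 2, or with every array shifted to 1 median of all probe sets. Peroxisomal genes were lower in 15 of 22, among them the amino acid oxidase Dao (-2.84, SE 0.18) and the hydroxy acid oxidase Hao2 (-1.45, SE 0.10). Fat marker genes were highest on Nx mouse 4, whose fatty acid oxidation mean (11.44) lay above the other Nx arrays (11.04 to 11.17); its part in these values was not tested.

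Glycolysis showed no common direction, with 6 of 18 genes higher and 6 lower, near the shares of all genes (24.8% and 30.0%; median 0.11), and with every array shifted to 1 median of all probe sets 4 were higher and 8 lower (median -0.06). The hexokinase of leukocytes Hk3 read 7.14, 7.38, 6.97 and 5.92 on the Nx arrays and 2.58, 2.70, 2.70 and 2.70 on the sham arrays (18.1-fold; log2 difference 4.18, SE 0.50, adjusted p = 5.09e-09), the bifunctional enzyme Pfkfb4 rose by 1.41 (SE 0.20), and Pgk1 (-0.33, SE 0.05), Tpi1 (-0.37, SE 0.08) and the muscle-type phosphofructokinase Pfkm (-0.76, SE 0.13) fell; Pgk1 did not pass with the median of its probe sets. Gluconeogenesis was lower in 8 of 11 with 1 higher, Pck2 (0.47, SE 0.11), which did not pass with Nx mouse 1 alone. Fructose bisphosphatase Fbp1 fell by 0.65 (SE 0.07) and the glucose exporter Slc2a2 by 1.11 (SE 0.15).

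Genes of drug and steroid metabolism held both large falls and large rises. Cytochromes P450 were lower in 13 of 26 and higher in 3, and conjugating enzymes were lower in 14 of 27 and higher in 6. The oxysterol hydroxylase Cyp7b1 read 9.70, 9.26, 8.67 and 8.08 on the Nx arrays and 4.93, 5.19, 5.20 and 5.23 on the sham arrays (13.8-fold; log2 difference 3.79, SE 0.33, adjusted p = 2.62e-12). The glucuronosyltransferases Ugt2b5 (7.82, 6.95, 8.87 and 6.07 on the Nx arrays and 2.62, 2.76, 2.87 and 2.96 on the sham arrays; log2 difference 4.63, SE 0.53, adjusted p = 1.35e-09) and Ugt2b37 (7.16, 6.20, 6.52 and 7.54 on the Nx arrays and 2.78, 2.78, 3.03 and 3.03 on the sham arrays; log2 difference 3.96, SE 0.37, adjusted p = 1.25e-11) rose from near the floor. All Nx values of these 3 genes lie at least 2 log2 units above sham. The glutathione transferase Gstp1 rose by 1.29 (SE 0.12), while the sulfotransferase Sult1c2 fell by 2.01 (SE 0.15), Ugt3a1 by 2.31 (SE 0.22) and Cyp2d26 by 2.44 (SE 0.21). Targets of the oxidant sensor Nrf2 rose in 9 of 19 and fell in 2, or 7 and 6 with every array shifted to 1 median of all probe sets: the aldo-keto reductase Akr1b8 rose by 3.70 (SE 0.31), Cbr3 by 2.93 (SE 0.39) and Nqo1 by 1.91 (SE 0.21).

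Cell division genes rose. Cells that enter the cycle copy their DNA in S phase and then build the mitotic spindle, and both sets were high: 30 of 35 S phase genes and 39 of 46 mitosis genes were higher and none lower, with medians of 1.15 and 2.67. The spindle kinase Aurka read 5.23, 5.43, 5.84 and 5.49 on the Nx arrays and 2.21, 2.23, 2.39 and 2.23 on the sham arrays (log2 difference 3.23, SE 0.21, adjusted p = 4.23e-15), with 3 of 4 sham values at the floor, Plk1, a kinase that drives entry into mitosis, read 5.00, 5.49, 5.49 and 4.32 on the Nx arrays and 2.20, 2.21, 2.21 and 2.70 on the sham arrays (log2 difference 2.74, SE 0.19, adjusted p = 1.74e-14), and Tpx2, which activates Aurka, rose by 3.03 (SE 0.24). Groups did not overlap for 38 of the 46 mitosis genes, against 43.9% of all genes. In S phase, the replication licensing factor Cdc6 read 5.35, 5.30, 5.13 and 5.29 on the Nx arrays and 2.45, 2.45, 2.45 and 2.32 on the sham arrays (log2 difference 2.85, SE 0.25, adjusted p = 4.05e-12), the helicase subunit Mcm6 8.76, 8.81, 9.12 and 8.71 on the Nx arrays and 4.71, 6.40, 6.24 and 6.53 on the sham arrays (log2 difference 2.88, SE 0.30, adjusted p = 1.52e-10), and E2f7, which restrains the E2F program, rose by 1.99 (SE 0.15). Each Nx array lies above each sham array for these genes. On Nx mouse 1 alone against the 4 sham arrays 37 of the 46 mitosis genes passed. Cyclin D genes split, with the kinase Cdk6 (1.81, SE 0.14) and cyclin Ccnd2 (1.70, SE 0.14) higher and Ccnd1 (-0.51, SE 0.14) lower. Of 26 cell cycle inhibitors and p53 targets 14 were higher, led by Cdkn1a (8.08, 7.68, 7.67 and 7.24 on the Nx arrays and 5.62, 5.49, 5.50 and 5.62 on the sham arrays; log2 difference 2.11, SE 0.21, adjusted p = 1.02e-10), and 3 lower. With every array shifted to 1 median of all probe sets 8 were higher and 6 lower.

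Promoters were RefSeq sequences of GRCm38.p6, from 250 bases before to 50 after the first listed start of a gene, and both strands were searched. Of the 39 mitosis genes that rose, 33 had a promoter in the table, and 26 of them (78.8%) held TTTGAA and 26 (78.8%) CCAAT, against 12.1% and 38.2% of the 10626 promoters of measured genes. TTTGAA is the core of the cell cycle homology element and CCAAT binds NF-Y. Among 25 promoters of S phase genes, 8 (32%) held TTTCGCG or TTTGGCG, forms of the E2F element that can overlap each other, against 4.12% of all. A match is a description of letters and not a site in use. Shown are the promoters of the 2 mitosis genes of smallest p that hold both motifs and of the S phase gene of smallest p that holds TTTCGCG, each 5′ to 3′ on the gene's strand with motifs in capitals: Aurka at chr2:172370521-172370820 (minus strand), Plk1 at chr7:122159185-122159484 (plus strand) and Mcm6 at chr1:128359656-128359955 (minus strand).
Aurka: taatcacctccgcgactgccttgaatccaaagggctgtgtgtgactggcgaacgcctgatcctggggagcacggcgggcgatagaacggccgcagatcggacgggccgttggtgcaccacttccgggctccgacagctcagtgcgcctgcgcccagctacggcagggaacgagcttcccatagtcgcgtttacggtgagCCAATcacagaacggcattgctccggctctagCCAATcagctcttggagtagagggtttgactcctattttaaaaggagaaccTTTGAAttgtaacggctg
Plk1: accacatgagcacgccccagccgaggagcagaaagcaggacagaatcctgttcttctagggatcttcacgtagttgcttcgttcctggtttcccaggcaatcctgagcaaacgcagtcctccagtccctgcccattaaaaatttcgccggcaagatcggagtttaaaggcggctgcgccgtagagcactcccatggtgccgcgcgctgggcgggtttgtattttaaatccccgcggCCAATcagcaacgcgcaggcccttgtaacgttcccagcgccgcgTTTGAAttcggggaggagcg
Mcm6: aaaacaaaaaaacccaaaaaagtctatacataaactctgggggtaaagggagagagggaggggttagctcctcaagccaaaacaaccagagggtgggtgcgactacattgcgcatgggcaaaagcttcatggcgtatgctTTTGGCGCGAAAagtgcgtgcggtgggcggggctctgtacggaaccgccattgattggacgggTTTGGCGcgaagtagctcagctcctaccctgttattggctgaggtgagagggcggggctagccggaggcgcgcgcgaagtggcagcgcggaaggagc

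In the Aurka promoter 2 copies of CCAAT stand before TTTGAA, and in the Plk1 promoter 1 copy does. In the Mcm6 promoter the first run of capitals holds both E2F forms overlapping on opposite strands.

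Macrophage genes rose: all 42 measured genes of monocytes and macrophages were higher, with a median of 3.62, while 24.8% of all genes were higher. The Fc receptor Fcgr1 read 7.76, 8.21, 7.55 and 7.61 on the Nx arrays and 2.42, 3.16, 3.20 and 3.39 on the sham arrays (log2 difference 4.74, SE 0.38, adjusted p = 4.41e-13), and the complement chain C1qb, made by resident and recruited macrophages, read 13.02, 13.34, 13.04 and 12.51 on the Nx arrays and 8.69, 9.14, 9.01 and 9.26 on the sham arrays (log2 difference 3.95, SE 0.32, adjusted p = 4.54e-13). The defining markers Adgre1 (9.91, 9.99, 9.28 and 9.13 on the Nx arrays and 5.75, 6.36, 5.91 and 7.00 on the sham arrays) and Cd68 rose by 3.32, SE 0.33 and 5.86, SE 0.49. No Nx value of these genes reached the sham range, although sham mouse 5 was the highest sham array for Adgre1. The list mean was 10.11, 10.49, 9.66 and 9.11 on the Nx arrays, against 5.58 to 6.83 on the sham arrays. With Nx mouse 1 as the only Nx array 36 of the 42 were higher. Lysosomal genes rose in 17 of 29 and fell in 6, with cathepsins Ctsk (5.62, SE 0.44), Ctss (3.70, SE 0.29) and Ctsc (2.40, SE 0.20) and with Lamp2 (-0.57, SE 0.06) and Ctsf (-1.29, SE 0.15) on the lower side.

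Lists of other leukocytes differed in how many members rose. Of 9 measured neutrophil genes 8 were higher, but the values of the calprotectin chain S100a9 were 8.62, 13.01, 7.48 and 7.75 on the Nx arrays and 2.23, 2.78, 5.56 and 4.14 on the sham arrays (log2 difference 5.54, SE 0.99, adjusted p = 9.15e-06), with mouse 2 far above the other Nx arrays. With only the 8 arrays fitted 4 neutrophil genes were higher. The formyl peptide receptor Fpr2 rose by 4.12 (SE 0.49) and the gelatinase Mmp9 by 3.48 (SE 0.38). In the T and NK cell list 5 of 16 were higher, a share near the 24.8% of all genes, namely Klrk1 (1.97, SE 0.20), Klrd1 (2.03, SE 0.31), granzyme Gzma (1.79, SE 0.23), Thy1 (2.95, SE 0.41), which fibroblasts also make, and Cd28 (0.73, SE 0.28), which did not pass without Nx mouse 1 or 2. The T cell receptor chain Cd3g was at the floor in all but Nx mouse 2 (2.20, 3.66, 2.20 and 2.20 on the Nx arrays). In the B and plasma cell list 2 of 8 were higher, near the 24.8% of all genes: syndecan Sdc1 (2.34, SE 0.17), also an epithelial gene, and Jchain (2.93, SE 0.65). Of 14 genes of dendritic cells and MHC class II, 10 were higher, a count that was 5 without Nx mouse 2, 6 without sham mouse 1 and 3 with Nx mouse 1 alone. For cells of the blood and the spleen as well, more cells and more RNA per cell cannot be told apart.

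Chemokines that call monocytes were among the strongest signals. Of 17 measured CC chemokines and receptors, 14 were higher and 2 lower (median 3.06). After Ccl8 and Ccl9, Ccl3 rose at least 13.3-fold (7.27, 5.99, 5.80 and 4.99 in Nx, at the floor in sham; log2 difference 3.81, SE 0.35, adjusted p = 9.7e-12), Ccl6 by 5.05 (SE 0.59) and the receptor Ccr1 by 4.15 (SE 0.47). The homeostatic epithelial chemokines Ccl25 (-0.36, SE 0.15) and Ccl27a (-0.39, SE 0.13) were the ones that fell. Ccl25 did not pass without any one of Nx mice 2, 4 and 5 or sham mice 2, 4 and 5, and Ccl27a did not without Nx mouse 1 or sham mouse 5. CXC chemokines and receptors rose in 13 of 19 and fell in 1: the neutrophil attractants Cxcl5 (at least 17.2-fold; 7.22, 6.86, 5.53 and 5.92 in Nx) and Cxcl2 (3.97, SE 0.49), the platelet factor Pf4 (4.10, SE 0.45), the receptor Cxcr4 (2.78, SE 0.39) and the interferon-induced Cxcl10 (2.15, SE 0.34) had the smallest p. Cxcl10 did not pass with Nx mouse 1 alone.

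Pathways downstream of cytokines followed. In the TNF, IL-1 and NF-kB list 27 of 29 were higher and none lower (median 1.66): after Vcam1, the receptors Il18r1 (2.71, SE 0.29) and Il1r1 (2.38, SE 0.26), the adhesion molecule Icam1 (1.77, SE 0.20) and the survival factor Birc3 (1.70, SE 0.20). In the IL-6 and Stat3 list 11 of 19 were higher and none lower. The feedback inhibitor Socs3 read 10.93, 10.70, 10.62 and 9.86 on the Nx arrays and 6.34, 7.10, 6.80 and 7.18 on the sham arrays (log2 difference 3.67, SE 0.27, adjusted p = 6.63e-14), the ligand Clcf1 rose by 2.88 (SE 0.24) and the oncostatin receptor Osmr by 1.92 (SE 0.24). Pattern recognition and inflammasome genes were higher in 21 of 22. Among them were the DNA sensor Cgas (1.75, SE 0.12), the RNA sensors Ifih1 (2.20, SE 0.17) and Dhx58 (2.54, SE 0.21) and the lipoprotein receptor Tlr1 (3.50, SE 0.31). Death genes rose in 15 of 21 and fell in 3: the necroptosis kinase Ripk3 rose at least 3.55-fold (4.02, 4.11, 4.26 and 4.03 in Nx; log2 difference 1.90, SE 0.10, adjusted p = 4.14e-17) and its effector Mlkl read 6.09, 7.34, 6.78 and 6.45 on the Nx arrays and 3.47, 3.70, 3.74 and 3.62 on the sham arrays (log2 difference 3.03, SE 0.21, adjusted p = 1.24e-14), while Bid fell by 1.22 (SE 0.11), Bik by 0.90 (SE 0.18) and Bad by 0.40 (SE 0.08).

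Complement genes rose in 13 of 18 and fell in 2. The anaphylatoxin receptors C3ar1 (9.94, 9.94, 9.30 and 8.78 on the Nx arrays and 3.09, 3.48, 3.43 and 5.49 on the sham arrays; log2 difference 5.62, SE 0.49, adjusted p = 3e-12) and C5ar1 (3.57, SE 0.34) rose with the C1q chains, whereas the alternative pathway factor Cfb fell by 0.75 (SE 0.13) and the membrane inhibitor Cd59a by 0.49 (SE 0.10). In the acute phase and coagulation list 14 of 26 were higher and 3 lower. The serum amyloid Saa3 read 11.24, 11.70, 9.86 and 9.29 on the Nx arrays and 3.54, 4.69, 3.58 and 8.72 on the sham arrays (log2 difference 5.39, SE 0.95, adjusted p = 6.98e-06), tissue factor F3 rose by 1.99 (SE 0.23) and ceruloplasmin Cp by 1.53 (SE 0.17), and Tfpi2 (-1.28, SE 0.14), Serpina1b (-2.35, SE 0.53) and F5 (-1.03, SE 0.29) fell; F5 did not pass with only the 8 arrays fitted or with Nx mouse 1 alone. The fibrinogen genes differed: Fgg rose by 1.86 (SE 0.43), and Fga (0.02, SE 0.35) and Fgb (-1.02, SE 0.69) did not pass.

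The interferon response was broad and uneven among the controls. Of 53 measured genes 47 were higher and none lower (median 1.93), and Nx and sham values did not overlap for 35, against 43.9% of all genes. The regulator Irf7 was at the floor in sham and read 5.73, 5.02, 4.92 and 4.53 in Nx (at least 6.84-fold; log2 difference 2.85, SE 0.15, adjusted p = 1.29e-17). Stat2, a subunit of the factor that carries the signal to the nucleus, read 4.77, 4.88, 4.76 and 4.97 on the Nx arrays and 3.23, 3.87, 3.24 and 3.23 on the sham arrays (log2 difference 1.45, SE 0.10, adjusted p = 6.68e-15). Oasl1 (2.05, SE 0.14) and the surface protein Ly6e (2.29, SE 0.16) followed by p. The list mean was 6.26, 7.13, 7.58 and 6.44 on the sham arrays, a wide range for controls. The Nx means were 8.72, 9.42, 8.87 and 8.68, above all sham means. Over the alternatives the count of higher genes ran from 34 to 49.

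Promoters of risen interferon genes often held GAAANNGAA, the core of the interferon-stimulated response element. On either strand 15 of 36 with a listed promoter (41.7%) held it, against 7.38% of all. The same search with TGANTCA, the AP-1 element, found it in 4 of 13 promoters (30.8%) of risen injury genes against 5.14% of all, and GTTAATNAT, a form of the HNF1 element, in 1 of 48 promoters (2.08%) of fallen proximal tubule genes against 0.536%. The members of smallest p that hold the motif are shown with it in capitals: Stat2 at chr10:128270248-128270547 (plus strand), Trim30a (2.83, SE 0.21) at chr7:104465144-104465443 (minus strand), and for AP-1 Cldn4 at chr5:134946885-134947184 (minus strand).
Stat2: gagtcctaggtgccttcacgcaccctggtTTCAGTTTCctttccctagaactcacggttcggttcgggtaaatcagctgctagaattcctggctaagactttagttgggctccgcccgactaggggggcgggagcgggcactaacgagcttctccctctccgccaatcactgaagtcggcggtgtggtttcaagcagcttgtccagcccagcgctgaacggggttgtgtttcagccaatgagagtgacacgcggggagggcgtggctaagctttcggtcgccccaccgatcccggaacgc
Trim30a: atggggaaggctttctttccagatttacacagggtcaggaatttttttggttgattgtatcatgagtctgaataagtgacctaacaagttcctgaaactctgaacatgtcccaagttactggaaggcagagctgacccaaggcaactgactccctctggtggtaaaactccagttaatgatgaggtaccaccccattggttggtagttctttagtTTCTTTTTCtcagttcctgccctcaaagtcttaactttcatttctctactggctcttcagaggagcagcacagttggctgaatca
Cldn4: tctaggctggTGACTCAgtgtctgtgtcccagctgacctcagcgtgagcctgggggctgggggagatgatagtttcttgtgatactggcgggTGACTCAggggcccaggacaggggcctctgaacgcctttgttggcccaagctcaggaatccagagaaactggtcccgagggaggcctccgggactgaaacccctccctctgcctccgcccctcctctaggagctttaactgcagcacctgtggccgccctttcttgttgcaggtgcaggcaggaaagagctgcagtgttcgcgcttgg

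Each of the Stat2 and Trim30a promoters holds 1 copy, which on the gene's own strand reads TTCNNTTTC, and the Cldn4 promoter holds 2 AP-1 copies.

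Matrix genes rose. All 15 fibrillar and associated collagens were higher, with no overlap in any (43.9% of all genes did not overlap), and a median of 3.80. Col1a2, the partner chain of Col1a1, read 14.78, 14.93, 14.36 and 14.40 on the Nx arrays and 10.59, 10.90, 11.19 and 11.60 on the sham arrays (log2 difference 3.54, SE 0.24, adjusted p = 1.37e-14), and Col5a2 (5.36, SE 0.37), Col12a1 (5.06, SE 0.36) and Col5a1 (3.83, SE 0.28) rose too. Sham mouse 5 had the highest list mean of the sham kidneys (7.26, against 6.43 to 6.81), still far below the Nx kidneys (10.17 to 10.76). Basement membrane genes rose in 15 of 21 and fell in 2. The chains Col4a1 (1.90, SE 0.15) and Col4a2 (1.74, SE 0.15), found in all basement membranes, rose, and Col4a3 (-0.84, SE 0.13) and Col4a4 (-1.05, SE 0.08), which form the mature membrane of the glomerulus, fell.

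Matricellular proteins and proteoglycans were higher in 20 of 22 with none lower (median 2.79). Thrombospondin Thbs2 read 10.10, 10.32, 9.67 and 9.59 on the Nx arrays and 5.32, 5.37, 5.49 and 5.94 on the sham arrays (log2 difference 4.39, SE 0.34, adjusted p = 1.84e-13), Sparc rose by 2.51 (SE 0.20), lumican Lum by 5.11 (SE 0.44) and fibronectin Fn1 by 3.37 (SE 0.31). Elastic fibre and crosslinking genes rose in 19 of 25 and fell in 1, with Fbn2, a fibrillin of developing tissue, at 7.88, 9.33, 8.69 and 7.47 on the Nx arrays and 2.34, 2.70, 2.38 and 2.57 on the sham arrays (log2 difference 5.85, SE 0.50, adjusted p = 2.17e-12), the fibulin Fbln2 up by 5.20 (SE 0.44) and the hydroxylase P3h2 lower (-0.99, SE 0.12). Proteases of the matrix were higher in 19 of 24: the gelatinase Mmp2 read 10.82, 11.12, 10.53 and 10.22 on the Nx arrays and 4.87, 5.19, 5.19 and 5.52 on the sham arrays (log2 difference 5.48, SE 0.33, adjusted p = 8.13e-16) and its activator Mmp14 rose by 4.32 (SE 0.30). The urokinase gene Plau (-1.04, SE 0.16) and Timp3 (-0.45, SE 0.12) fell, Timp3 not with Nx mouse 1 alone.

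Fibroblast genes rose in 16 of 24 and fell in 2. Fap, a protease of activated fibroblasts, read 8.01, 7.85, 7.74 and 7.06 on the Nx arrays and 2.69, 2.52, 2.47 and 3.07 on the sham arrays (log2 difference 4.97, SE 0.42, adjusted p = 1.76e-12), the cadherin Cdh11 rose by 3.22 (SE 0.29), the receptor Pdgfrb by 1.47 (SE 0.17) and smooth muscle actin Acta2 by 1.42 (SE 0.17), while the stromal factor Foxd1 (-0.77, SE 0.17) and Pdgfc (-0.49, SE 0.13) fell, Pdgfc not against the FVB sham mice of days 28 and 53. TGF-beta and BMP genes rose in 11 of 26 and fell in 4, or 8 and 7 with every array shifted to 1 median of all probe sets. The receptors Tgfbr2 (1.36, SE 0.13) and Tgfbr1 (0.88, SE 0.09), the ligand Tgfb2 (1.62, SE 0.18) and the activin chain Inhba (2.70, SE 0.33) rose, and the tubule ligands Bmp7 (-1.18, SE 0.18), Bmp6 (-1.52, SE 0.17) and Bmp4 (-0.67, SE 0.14) and the mediator Smad3 (-0.42, SE 0.12) fell, Smad3 not with only the 8 arrays fitted.

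Genes of vessels and glomeruli changed in part. Endothelial genes were lower in 14 of 31 and higher in 7 (median -0.19), where 30.0% of all genes were lower and 24.8% higher. Over the alternatives the lower count ran from 9 to 19 and the higher count from 6 to 8. The VEGF receptor Flt1 read 8.02, 7.38, 7.93 and 8.09 on the Nx arrays and 8.94, 9.08, 8.91 and 9.26 on the sham arrays (log2 difference -1.19, SE 0.13, adjusted p = 2.37e-10), the angiopoietin receptor Tek fell by 0.93 (SE 0.10) and Eng by 0.70 (SE 0.08). The risen members were Icam1, P-selectin Selp (at least 4.79-fold; 3.91, 5.67, 4.38 and 4.20 in Nx), Vegfd (1.63, SE 0.20), Vegfc (0.84, SE 0.17), Nrp1 (0.37, SE 0.07), Vwf (1.16, SE 0.45) and the defining marker Cdh5 (0.52, SE 0.13). Vwf did not pass without Nx mouse 2 or 4 or sham mouse 4, and Vegfc did not with Nx mouse 1 alone. Pecam1, the other defining marker, read 6.42, 6.28, 6.04 and 6.31 on the Nx arrays and 6.18, 6.22, 6.41 and 6.12 on the sham arrays (log2 difference 0.03, SE 0.16, adjusted p = 0.913) and did not pass. Podocyte genes were lower in 6 of 14 and higher in 4 (median -0.02), where 30.0% of all genes were lower and 24.8% higher. Nphs1 (-1.50, SE 0.26), Podxl (-1.08, SE 0.13) and Vegfa (-1.08, SE 0.12), which podocytes and tubules make, fell, and Kirrel (7.33, 7.80, 7.41 and 7.22 on the Nx arrays and 4.72, 5.22, 5.44 and 5.91 on the sham arrays; log2 difference 2.12, SE 0.24, adjusted p = 8.83e-10), Tcf21 (0.94, SE 0.20), Cd2ap (0.35, SE 0.09) and Wt1 (0.81, SE 0.24) rose, the last 2 not with Nx mouse 1 alone.

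Genes of mineral balance fell for the most part. The list of vitamin D, phosphate and erythropoietin genes was lower in 8 of 13 and higher in 3. Klotho, Kl, the coreceptor of FGF23 in the tubule, read 10.28, 9.81, 10.29 and 10.63 on the Nx arrays and 12.04, 11.95, 11.68 and 11.88 on the sham arrays (3.11-fold lower; log2 difference -1.63, SE 0.16, adjusted p = 7.02e-11). The vitamin D hydroxylase Cyp27b1 was at the floor in every Nx kidney and read 3.99, 5.12, 4.41 and 3.05 in sham (at least 3.64-fold lower; log2 difference -1.94, SE 0.60, adjusted p = 0.00587). It did not pass against the sham mice of days 28 and 53 (adjusted p = 0.408) or with Nx mouse 1 alone. Slc34a2, a phosphate cotransporter of lung and gut, read 8.57, 7.85, 7.57 and 8.15 on the Nx arrays and 4.19, 5.32, 5.51 and 4.60 on the sham arrays (8.74-fold higher; log2 difference 3.13, SE 0.31, adjusted p = 5.39e-11), without overlap. Fgfr1, a receptor for FGF23, was higher (0.60, SE 0.12), but not when the median of its probe sets stood for it.

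Of 17 vasoactive genes 5 were higher and 5 lower, near the shares of all genes (24.8% higher and 30.0% lower). The type 2 angiotensin receptor Agtr2 was at the floor in sham and read 5.87, 3.96, 4.00 and 4.24 in Nx (at least 4.72-fold; log2 difference 2.32, SE 0.18, adjusted p = 2.26e-13), with mouse 1 the highest, and the type 1 receptor Agtr1a fell by 1.00 (SE 0.13). The prostaglandin-degrading enzyme Hpgd fell by 1.04 (SE 0.14) and the prostaglandin receptor Ptger4 rose by 1.30 (SE 0.18). In the insulin and IGF axis 11 of 19 were lower and 3 higher, or 7 and 1 with Nx mouse 1 alone. Igf1 read 10.15, 10.55, 10.37 and 10.14 on the Nx arrays and 7.14, 6.57, 6.81 and 7.33 on the sham arrays (10.1-fold higher; log2 difference 3.34, SE 0.28, adjusted p = 1.18e-12), and its receptor Igf1r (-0.80, SE 0.10) and the growth hormone receptor Ghr (-0.60, SE 0.09) fell. The EGF system was lower in 5 of 13 and higher in 3, also near those shares: the receptors Erbb2 (-1.54, SE 0.18) and Erbb3 (-1.44, SE 0.17) and the ligand Egf (-0.92, SE 0.17) fell, and the sheddases Adam17 (0.92, SE 0.11) and Adam10 (0.61, SE 0.09) rose, Adam10 not with the median of its probe sets. Clock genes were lower in 8 of 18 with none higher, Nr1d2 by 0.49 (SE 0.07), Tef by 0.88 (SE 0.13) and Cry2 by 0.90 (SE 0.18); hours of sampling are not given in the sources used here.

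Genes of protein synthesis and cell stress had small differences. Ribosomal proteins rose in 20 of 25 and fell in 1, Rps6 (-0.38, SE 0.07), but with every array shifted to 1 median of all probe sets 4 were higher and 2 lower, and with the median of the kept genes 13 were higher. Unfolded protein genes rose in 7 of 30 and fell in 9, near the shares of all genes (24.8% higher and 30.0% lower), or 5 and 16 with every array shifted to 1 median of all probe sets. Among them Asns, which makes asparagine, read 7.12, 7.08, 8.94 and 9.67 on the Nx arrays and 5.13, 5.79, 5.62 and 6.17 on the sham arrays (log2 difference 2.52, SE 0.45, adjusted p = 1.03e-05). Its Nx values and those of the whole list (9.28, 9.36, 9.52 and 9.83) were highest on mice 4 and 5, as the pancreas genes were. Asns kept its call with the pancreas list mean as a covariate. With Nx mouse 1 alone its difference was smaller, 1.44 against 2.52 with all Nx arrays. What part the pancreas signal plays here was not tested further. Hypoxia targets rose in 7 of 20 and fell in 7, not far from those shares, with Egln1 (-0.87, SE 0.08) and Vegfa lower. Heat shock genes were lower in 5 of 14, near the 30.0% of all genes, and higher in 1 (median 0.02). The risen gene, Hspb8 (1.93, SE 0.35), did not pass with the median of its probe sets.

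**Figure D4:**
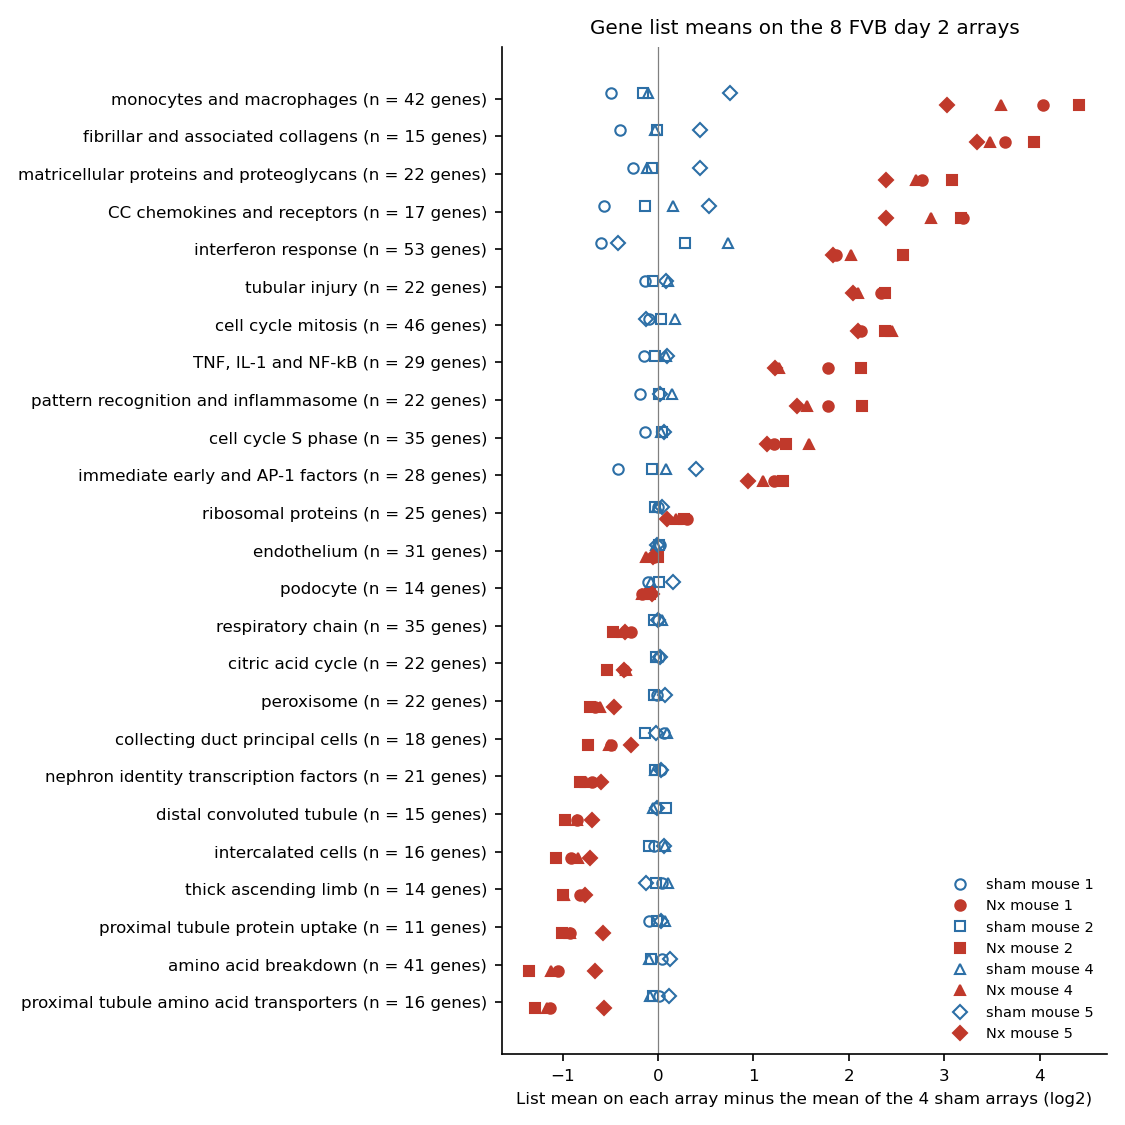
Mean of each gene list on each array minus the mean of the 4 sham arrays (x axis, log2), for 4 Nx (filled) and 4 sham (open) mice, with mouse numbers as symbols. The macrophage and collagen lists lie 3.77 and 3.60 above sham on average, the lists of amino acid transporters and breakdown differ by -1.04 and -1.04, and Nx mouse 5 is the Nx array nearest to sham in most lists.

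The next comparison asks where surgery acted differently in FVB and in B6 mice at day 2, the strains the series sets against each other. The 3 differences of effects that follow all share the FVB day 2 arrays. The effect (Nx minus sham) was higher in FVB for 299 genes (2.27%) and lower for 282 (2.14%). Single animals moved these counts: both together came to 343 without FVB Nx mouse 2 and to 951 without FVB Nx mouse 5. Of the 53 interferon genes 29 had the higher effect in FVB and none the lower. Slfn4 had a mean level of 8.62 ± 0.89 in FVB Nx kidneys and 3.25 ± 1.13 in B6 Nx kidneys (mean ± SD, n = 4 each), from 2.22 ± 0.02 and 2.75 ± 0.61 in sham (difference of effects 5.90, SE 0.44, adjusted p = 4.67e-12). Saa3 was already high in B6 sham kidneys (9.59 ± 0.70) and read 9.48 ± 1.18 after Nx, whereas in FVB it went from 5.13 ± 2.45 to 10.52 ± 1.13 (5.49, SE 1.34, adjusted p = 0.0113), a difference that did not pass with only the arrays of the comparison or with Nx mouse 1 alone. Pik3ap1, a signalling adaptor of leukocytes, went from 3.71 ± 1.09 to 8.80 ± 0.37 in FVB and from 2.70 ± 0.23 to 3.58 ± 0.68 in B6 (4.21, SE 0.54, adjusted p = 1.35e-06). Ifi202b lay at the floor in both B6 groups, so its difference (4.49, SE 0.55, adjusted p = 4.36e-07) rests on a probe set without signal in B6. In the other direction, Adgra1 rose in B6 from the floor to 6.03 ± 0.57 and reached 2.57 ± 0.37 in FVB (-3.46, SE 0.59, adjusted p = 0.000164). The kinetochore gene Nuf2 reached 5.96 ± 0.09 in B6 and 2.61 ± 0.31 in FVB (-3.15, SE 0.36, adjusted p = 1.07e-07). Its sham level was 2.42 ± 0.24 in B6 and at the floor in FVB. Mitosis genes as a list showed 1 larger and 3 smaller effects of 46, macrophage genes 7 and 0 of 42, and the lists of proximal tubule uptake, brush border and amino acid transport 0 and 0.

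Day 28 asks which changes last in FVB. The effect at day 2 was higher than at day 28 for 1644 genes (12.5%) and lower for 1680 (12.8%), a split that the scaling moves to 1174 and 2748 when each array is shifted to 1 median of all probe sets and to 1362 and 2129 with the median of the kept genes. Slfn4 was back at the floor (6.40, SE 0.44, adjusted p = 1.67e-13). The proteoglycan Vcan, at 8.00 ± 0.85 at day 2, read 3.98 ± 1.13 at day 28, while its sham level went from 3.34 ± 0.58 to 5.21 ± 0.85 (difference of the effects 5.90, SE 1.09, adjusted p = 0.000102), and Fbn2 went from 8.34 ± 0.83 to 3.44 ± 1.09 (4.82, SE 0.71, adjusted p = 3.49e-06). Fam151a and Slc34a3, among the largest falls of day 2, lay at 8.91 ± 0.44 and 9.60 ± 0.25 at day 28, against 9.44 ± 0.13 and 10.20 ± 0.18 in sham (-3.83, SE 0.39, adjusted p = 2.96e-09 and -3.28, SE 0.52, adjusted p = 1.15e-05). By list, 35 interferon, 26 mitosis and 25 macrophage genes had the higher effect at day 2, and 28 respiratory chain and 29 amino acid breakdown genes the lower one; 1 amino acid breakdown gene had the higher effect.

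Against day 53 the effect at day 2 was higher for 685 genes (5.20%) and lower for 864 (6.56%). Cyp27b1 changed sides: it was at the floor in Nx at day 2 and at 7.52 ± 0.67 in Nx at day 53, where sham read 2.81 ± 0.26 (-6.65, SE 0.84, adjusted p = 5.24e-07). Cthrc1, a secreted protein of repairing fibroblasts, read 6.75 ± 0.49 in Nx at day 2 and 2.43 ± 0.29 at day 53 (4.17, SE 0.71, adjusted p = 6.23e-05). The thymocyte and stromal gene Itm2a behaved alike (10.33 ± 0.17 and 6.91 ± 0.26; 3.64, SE 0.43, adjusted p = 1.7e-07). The anion transporter Slc22a7 had fallen to 9.78 ± 0.81 at day 2 and lay at 5.99 ± 1.30 at day 53 (3.75, SE 0.68, adjusted p = 0.000143), and the calcium-binding Pvalb at 8.67 ± 0.36 and 4.67 ± 1.65 (3.77, SE 0.72, adjusted p = 0.000309). The effects of the fibrinogen chains Fga, Fgb and Fgg were lower at day 2 than at day 53 (differences -3.93, SE 0.50; -4.84, SE 0.98; -3.82, SE 0.61). Interferon genes had the higher effect at day 2 in 24 of 53 and the lower in none. Of 16 intercalated cell genes 8 had the higher effect at day 2 and 2 the lower, and of 15 distal convoluted tubule genes 6 the higher and 1 the lower; the list medians were -1.02 and -0.75 at day 2 and -1.42 and -1.29 at day 53.

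**Figure D5:**
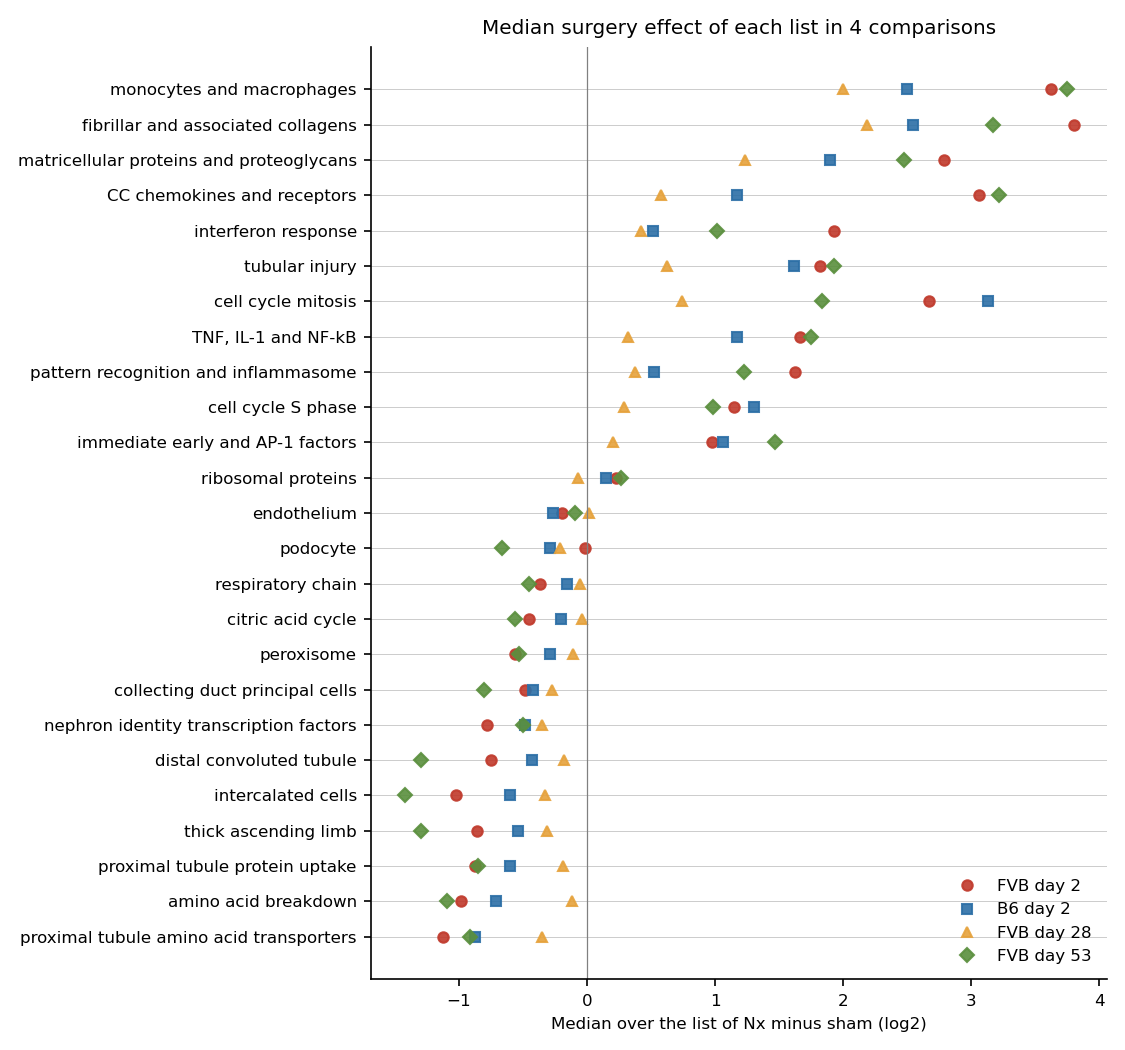
Median over each list of the difference Nx minus sham (x axis, log2) in 4 comparisons that share no array: FVB at day 2, B6 at day 2, FVB at day 28 and FVB at day 53. The medians carry no error and are a description; the interferon median is 1.93 in FVB at day 2 and 0.52 in B6 at day 2, and the mitosis medians are 2.67 and 3.13.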

How the data were processed

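Whole kidney RNA of 48 mice was measured on Affymetrix arrays, 1 per animal. The deposited values are on a log2 scale, processed by the authors; MAS5 is named in the submitters' processing notes, without its role, and normalization is not given in the sources used here. Values were used as deposited. Control probe sets (64) were left out. The platform annotation gave 1 symbol for 34958 of 45101 probe sets, several for 932 and none for the others (9211 not listed). Probe sets above 2.277, the 40th percentile of all values, on at least 4 arrays were kept (29213), and the kept probe set of highest mean stood for a gene (13174 genes).

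A mean per group (12 groups, all 48 arrays) was fitted with limma 3.58.1 in R 4.3.3, with eBayes and an intensity trend, two-sided, Benjamini-Hochberg adjustment over all genes and a threshold of 0.05; it was tested on simulated data. SE is that of the fit. Array values were described with Python 3.11.15, pandas 2.3.3, numpy 2.4.6 and scipy 1.17.1, and drawn with matplotlib 3.10.9. The labels do not say that animals of a group came from separate litters or cages, so p-values measure the spread between these animals.

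The members and the 76 gene lists were chosen with earlier results of these data known, so lists are described by counts and medians and carry no test. Named genes are the 15 largest rises and falls without overlap between groups, up to 5 members of smallest p in each list, members that passed against the direction of their list, all members of lists of 8 or fewer measured genes, the 10 largest rises and falls outside the lists, and the 6 largest differences each way from B6, day 28 and day 53; defining cell markers were added, and Mcm6 and Trim30a were named for their promoters after values were seen. The alternatives were other scalings, filters, probe sets per gene, variance models, control arrays and arrays left out, a pancreas covariate, and, added after seeing the data, the kept-gene median and Nx mouse 1 alone.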

Additional observations from a re-analysis of the deposited data

Results flagged for a closer look

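Among list means and the largest changes, 12 of 152 groups of 4 arrays and 10 of 78 groups of 4 values held 1 array farther from the rest than Dixon's test allows at 95%; chance marks about 1 in 20 groups. Sham mouse 5 stood high for matrix proteases (list mean 5.71), acute phase genes (6.30), Bmper (2.81), Ccl9 (8.02), Clec4n (2.45), Gpnmb (3.30), Penk (4.56), Serpinf1 (6.32) and Timp1 (2.97). Nx mouse 5 stood high for claudins (list mean 8.64), Il5ra (3.45) and Lrrc66 (5.12) and low for glycolysis (9.27) and Serpinf1 (9.36). Nx mouse 2 stood low for the citric acid cycle (list mean 12.54) and clock genes (7.71) and high for B and plasma cell genes (5.30). Sham mouse 1 was low for S phase (5.39) and TGF-beta genes (8.02), sham mouse 4 stood apart for glucocorticoid targets (9.85), sham mouse 2 for urothelium (3.17) and Nx mouse 4 for fat (10.49).

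Effects of surgery differed from those in B6 at day 2 by the limma test of the difference for Slfn4 (5.90), Saa3 (5.49), Ms4a4c (4.58), Ifi202b (4.49), Ccl8 (4.36) and Pik3ap1 (4.21), which were higher in FVB, and for Mmp7 (-2.99), Nuf2 (-3.15), Il5ra (-3.25), Adgra1 (-3.46), Serpina6 (-3.76) and Serpina1b (-5.25), which were lower. Serpina6 lay at the floor in both B6 groups, as Ifi202b did. Il5ra read 2.95 ± 0.11 in B6 sham and 3.01 ± 0.35 in B6 Nx kidneys, low values that may also be background. Nuf2 lay at the floor in FVB sham kidneys and read 2.61 ± 0.31 in FVB Nx kidneys. Whether its probe set detects the FVB transcript was not tested. With Nx mouse 1 as the only FVB Nx array Saa3 and Ccl8 did not pass, and Saa3 did not with only the arrays of the comparison (adjusted p = 0.0557).

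Against FVB at day 28 the effect was higher for Slfn4 (6.40), Vcan (5.90), Ms4a4c (5.38), the macrophage chitinase-like gene Chil3 (5.33), Fbn2 (4.82) and S100a9 (4.49) and lower for Slc34a3 (-3.28), Inmt (-3.41), Cyp2d12 (-3.64), Fam151a (-3.83), Cyp27b1 (-4.00) and Cox8b (-4.36), a gene of brown fat and muscle. Without Nx mouse 2, S100a9 (adjusted p = 0.0695), Chil3 (0.097) and Cox8b (0.137) did not pass. S100a9 did not pass either with only the arrays of the comparison (0.0544) or with Nx mouse 1 alone (0.102), and Cox8b, at 0.0448 with all arrays, did not without Nx mouse 1 (0.12), without sham mouse 2, 4 or 5 (0.0545 to 0.0828), with no filter on low values (0.0695), with only the arrays of the comparison (0.0813) or with array weights (0.0787). Against day 53 it was higher for Slfn4 (6.36), Vcan (4.90), Cthrc1 (4.17), Pvalb (3.78), Slc22a7 (3.75) and Itm2a (3.64) and lower for Cyp4a12a (-3.68), Fgg (-3.82), Fga (-3.93), Ttr (-4.06), Fgb (-4.84) and Cyp27b1 (-6.65). Ttr, at an adjusted p of 0.0475 by limma, did not pass without Nx mouse 1, 2 or 4 (0.0624 to 0.106), without sham mouse 2 or 5 (0.0697 and 0.121), with no filter on low values (0.0744), with array weights (0.0869) or with only the arrays of the comparison (0.153).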

How the results depend on the processing

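The number of arrays limits the precision, and values at the floor give only a bound. The 7221 genes called in FVB at day 2 were 2061 when a log2 difference of at least 1 was asked as well; the other alternatives gave 5222 (Nx mouse 1 alone) to 8875 (every array shifted to 1 median of all probe sets), and leaving out 1 array in turn gave 6496 to 7199. The pancreas list mean as a covariate gave 6898. The difference from B6 moved from 581 genes to 324 with only the arrays of the comparison and to 366 with Nx mouse 1 alone, and leaving out 1 FVB array gave 343 to 951. The difference from day 28 ran from 2331 to 3922 genes, and that from day 53 moved from 1549 to 998 with only the arrays of the comparison and to 996 with Nx mouse 1 alone. The causes were not tested; fewer arrays enter the last 2 settings.

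Of 451 named genes called at day 2, 355 kept their call and direction in every alternative. Against the FVB sham mice of days 28 and 53 the sign turned for Ackr3 (0.0387), Alas2 (0.23), Gsta4 (-0.19), Hsd17b4 (-0.0892) and Zbtb46 (-0.0153). Apob, not called in the main fit (0.08, adjusted p = 0.78 by limma), was lower against them (-1.40, adjusted p = 7.71e-09 by limma). The sign turned for Fgfr1 (-0.0180) with the median of its probe sets, and for Gclc (0.0807) and Upk1b (-0.0705) with Nx mouse 1 alone. For Dut, Hspa4 and Hspg2 another kept probe set passed in the opposite direction. With the mouse number as a replicate block in a fit of the 8 arrays, 5570 genes were called. The labels do not say that a number pairs animals, and same-numbered arrays deviated together weakly or not at all (r over genes 0.127, 0.071, -0.002 and 0.003, other pairs -0.103 to 0.081), so the samples were treated as unpaired.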

Other observations

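Groups not described so far changed in part. Annexins and S100 proteins, which bind calcium at membranes, rose in 11 of 21 and fell in 3. Anxa3 rose by 2.64 (SE 0.18), Anxa1, which damps inflammation, by 2.68 (SE 0.26) and Anxa2 by 1.62 (SE 0.17), and the intestinal and renal Anxa13 fell by 2.57 (SE 0.27). Anxa3 read 10.55, 10.63, 10.28 and 10.11 on the Nx arrays and 7.62, 7.65, 7.67 and 8.07 on the sham arrays. Among cholesterol genes, the efflux pumps Abca1 (1.32, SE 0.17) and Abcg1 (1.56, SE 0.18) rose. The 3 that fell were the synthesis enzymes Cyp51 (-1.03, SE 0.16), Lss (-0.86, SE 0.18) and Mvd (-0.66, SE 0.18). Abca1 did not pass with the median of its probe sets, and Mvd differed by -0.56 with Nx mouse 1 alone. As a list 6 of 20 were higher, 3 were lower and 11 did not pass (median -0.02), where 24.8% of all genes were higher and 30.0% lower. The counts were 3 and 6 with every array shifted to 1 median of all probe sets, and 3 and 3 without Nx mouse 4. Metal handling genes rose in 6 of 20 and fell in 3 (5 and 6 with that shift), beside the same shares of all genes. The phagosomal transporter Slc11a1 rose by 3.63 (SE 0.31) and the zinc and manganese importer Slc39a8 fell by 1.35 (SE 0.14).

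Genes of red cell precursors were lower, with Slc4a1 (-1.38, SE 0.25), a red cell protein that intercalated cells also make, Alas2 (-1.12, SE 0.33) and Klf1 (-1.02, SE 0.27) down and Tal1 (0.14, SE 0.12, adjusted p = 0.365) not past the threshold. Alas2 did not pass with only the 8 arrays fitted, and its sign turned against the later sham mice. Slc4a1 read 8.36, 8.34, 9.05 and 9.20 on the Nx arrays and 10.14, 9.90, 10.24 and 10.20 on the sham arrays. Histidine decarboxylase Hdc, which makes histamine and is also a tubule gene in mice, read 5.30, 5.43, 4.66 and 6.89 on the Nx arrays and 5.53, 9.59, 9.05 and 7.45 on the sham arrays (log2 difference -2.33, SE 0.64, adjusted p = 0.002); with only the 8 arrays fitted it did not pass. In the mesothelial list 4 of 8 were higher, Krt19 (2.88, SE 0.38) being also a keratin of injured tubules. Msln rose by 0.62 (SE 0.15), though not with Nx mouse 1 alone. With Nx mouse 1 alone 1 of these 8 was higher.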
